A study of Mus musculus with 6 samples.

Results

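Genes that encode potassium channel subunits and their close auxiliary subunits were examined in the hippocampus of mice given adeno-associated virus (AAV) with a control shRNA or with shRNAs against L-DL, the long isoform of the RNA-binding protein hnRNP D-like. The members were all protein coding genes whose symbol begins with Kcn and that had at least 10 counted reads in at least 3 libraries. Of 94 protein coding Kcn genes in the count table, 82 passed this filter, among 17621 of all 52550 genes. Splicing was followed in the same genes, which held 136 of the 40961 listed splicing events.

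The control group was made of 3 samples of male wild-type C57BL/6 J mice that had received control shRNA virus in both CA1 areas at 8 weeks of age, and these carry the genotype label wild type. The other group was made of 3 samples of male mice of the same strain, age and injection sites that had received L-DL shRNA virus, with the genotype label hnRNP DL KD. Another label field calls the latter mice hnRNP DL-/-, whereas the methods describe a knockdown by tandem shRNAs behind the H1 promoter, and a CamkIIα promoter drove only the zsGreen marker of injected neurons. The control virus was injected at a higher titre than the L-DL virus, so virus dose and shRNA cannot be told apart. Whole hippocampal tissue was labelled as the source, so RNA of injected and uninjected cells may have been mixed. The labels number the replicates without saying more of their origin, so p-values measure only the spread between these samples, which may be technical.

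Potassium channels let potassium ions leave or enter the cell down their gradient and so set the resting potential, repolarise the action potential and limit repeated firing. Voltage-gated (Kv) channels open on depolarisation and are tetramers of alpha subunits, often with beta, KChIP or KCNE subunits that change their gating and traffic. Calcium- and sodium-activated channels follow the ions that enter during firing, inward rectifiers (Kir) pass current best near rest, and tandem-pore (K2P) channels carry leak current. In the hippocampus, Kv4 channels with KChIP and DPP partners carry the A-type current of pyramidal cell dendrites, Kv7 channels carry the M-current, and Kv3 channels serve fast-spiking interneurons.

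The reads counted on genes numbered 16052529 to 17913064 per library. Counts were scaled by the TMM method, given as counts-per-million values (CPM) and compared by the quasi-likelihood test of edgeR, whose p-values were adjusted by the Benjamini-Hochberg method over all tested genes. A gene was called at an adjusted p under 0.05, and each change is given as the log2 fold change of labelled KD over control with its standard error (SE). The targeted gene Hnrnpdl had 2862, 3120 and 2689 counts in the controls and 3939, 2680 and 2904 counts in those labelled L-DL KD, which is 176, 184 and 171 CPM in the controls and 217, 150.3 and 173 CPM in the labelled KD libraries. The groups overlapped, with a log2 fold change of 0.03 ± 0.12 (SE), adjusted p = 0.898. Counts per gene do not separate the long isoform, so its own level was not measured here. The libraries of that group are called labelled KD libraries because the count did not set them apart. The study itself assessed the knockdown by immunoblot of L-DL protein in the injected hippocampus and reported reduced L-DL. Of 8 neuronal marker genes, 7 were lower and 1 (Nefl) was higher in the labelled KD libraries, and their summed level was 4822 to 5052 CPM in the controls against 3068 to 3606 CPM. All 8 microglial markers were higher, with sums of 1122 to 1399 CPM against 2377 to 3022 CPM. The 5 choroid plexus markers ranged widely between single libraries, with sums of 1710, 434.9 and 4611 CPM in controls 1 to 3 and 5165, 115 and 29.7 CPM in labelled KD libraries 1 to 3. In tissue RNA, fewer cells of a type and less RNA per cell cannot be told apart, and the part of these markers in the results on channel genes was not tested.

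Of the 82 potassium channel genes, 26 were lower and 10 were higher in the labelled KD libraries, and 46 did not pass the test. The 36 called genes were 43.9% of the members, beside 30.5% of all tested genes. The 26 lower genes stood beside 15.0% of all genes called lower, and the 10 higher genes beside 15.6% called higher. The median log2 fold change was -0.21 over the members and 0.0059 over all tested genes. In 44 members the libraries of the groups did not overlap in CPM, against 47.2% of all tested genes, and 33 of these 44 lay lower in the labelled KD libraries. Reads of members made up 0.476% to 0.488% of all counted reads in the controls and 0.392% to 0.425% in the labelled KD libraries. With control replicate 3 and labelled KD replicate 1 left out, the 2 libraries richest in choroid plexus genes, 30 members were lower and 8 higher. Leaving out 1 library gave 20 to 35 lower and 6 to 11 higher members, the 6 without control replicate 1 or 2.

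**Figure D1:**
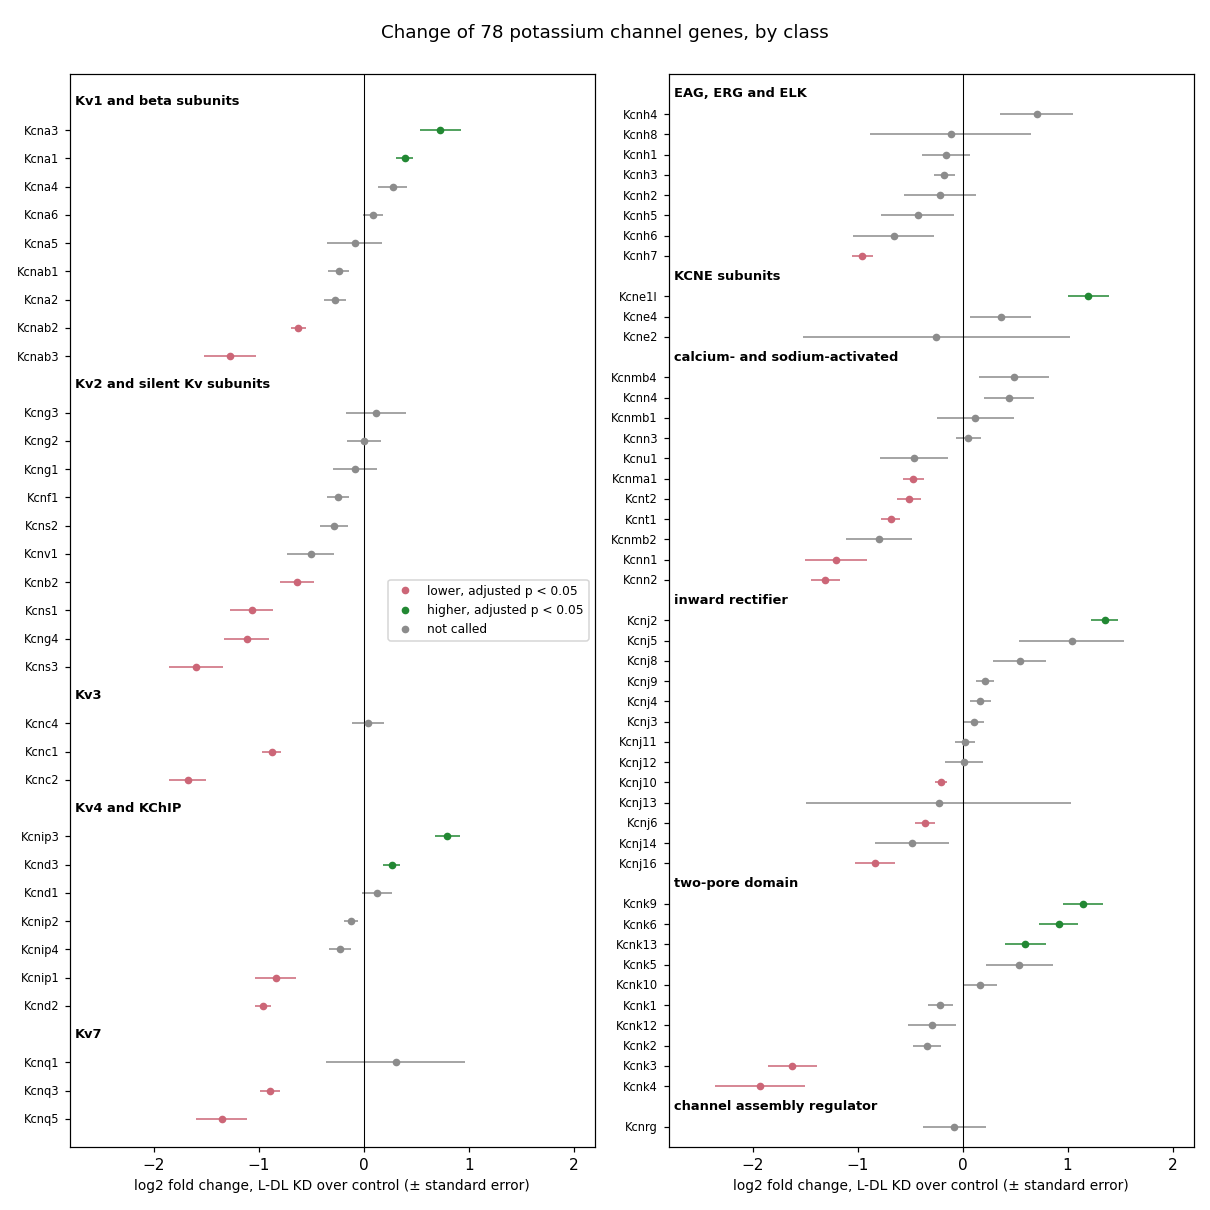
Log2 fold change (labelled L-DL KD over control, horizontal axis) of 78 members, grouped by channel class, with bars of 1 standard error from edgeR. Red points are 23 genes called lower, green points 9 called higher and grey points 46 that did not pass the test; of the called genes Kcnk4 lies furthest left and Kcnj2 furthest right, and the grey point of Kcnmb4 rests on gene counts below its junction counts.

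Pore-forming voltage-gated genes (37 of the members) held 13 lower and 4 higher genes, or 45.9% called. Auxiliary subunits (13 members) held 3 lower and 2 higher genes, or 38.5% called. These and the class counts that follow stand beside 30.5% of all tested genes called. Differences between classes were not tested. Kcnrg, a regulator of channel assembly, was not called (-0.08 ± 0.30 (SE), adjusted p = 0.871). Exons of 12 called members overlap another annotated gene over 1.02% to 5.98% of their length, and larger overlaps are given with the gene.

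Kv7 subunits form the slowly opening M-channels that hold neurons back from repeated firing. Kcnq5 (ENSMUSG00000028033, chr1:21398403-21961942) was 54.1, 47.2 and 60.6 CPM in the controls and 30.1, 14.4 and 19.01 CPM in the labelled KD libraries. Every labelled KD library lay under every control library, although labelled KD replicate 1 was the highest of its group, and the log2 fold change was -1.35 ± 0.24 (SE), adjusted p = 0.00481. Kcnq3 (ENSMUSG00000056258, chr15:65986387-66286642), an M-channel subunit of neurons, was 192, 178 and 205 CPM in the controls and 102, 115 and 93.6 CPM in the labelled KD libraries. Its groups were well apart and the change was -0.89 ± 0.09 (SE), adjusted p = 0.000497, with a control level 1.85 times that of the labelled KD libraries. Kcnq1, the heart and epithelial subunit, had at most 17 counts in a library and overlapping groups (log2 fold change 0.30 ± 0.66 (SE), adjusted p = 0.765).

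Kv3 subunits open at high voltage and close fast, and both of the genes most used by fast-spiking interneurons were lower. Kcnc2 (ENSMUSG00000035681, chr10:112271121-112467024) was 79.6, 71.5 and 82.04 CPM in the controls and 30.5, 24.5 and 17.8 CPM in the labelled KD libraries. This was the largest fall among voltage-gated members, at -1.68 ± 0.17 (SE), adjusted p = 0.000480, with no overlap between groups. Kcnc1 was 190.1, 171 and 204 CPM in the controls and 112, 99.4 and 96.4 CPM in the labelled KD libraries. Again the groups did not overlap and the change was -0.88 ± 0.09 (SE), adjusted p = 0.000453. Beside these, the interneuron markers Gad1, Gad2, Slc32a1 and Sst were lower (log2 fold changes -1.06, -1.16, -1.25 and -1.42), Pvalb was not (0.28 ± 0.17 (SE), adjusted p = 0.238) and Vip was not called, and the list summed to 582 to 658 CPM in the controls against 214 to 383 CPM. None of these 6 markers was at 0, and their part in the Kv3 result was not tested. Kcnc4 had overlapping groups and a change of 0.04 ± 0.15 (SE), adjusted p = 0.869.

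The Kv2 class comprises delayed rectifiers and the electrically silent subunits that act only in company with them. Kcns3 (ENSMUSG00000043673, chr12:11090202-11151056), a silent subunit, was 7.95, 10.4 and 9.46 CPM in the controls and 3.58, 3.59 and 1.97 CPM in the labelled KD libraries. The groups lay clearly apart, with a change of -1.60 ± 0.25 (SE), adjusted p = 0.00285. Kcng4 (ENSMUSG00000045246, chr8:119623854-119635680) was 10.7, 10.8 and 8.83 CPM in the controls and 5.34, 5.27 and 3.34 CPM in the labelled KD libraries. All labelled KD values were under the lowest control value and the change was -1.12 ± 0.21 (SE), adjusted p = 0.00635. Another silent subunit, Kcns1 (ENSMUSG00000040164, chr2:164163619-164171113), was 6.84, 9.06 and 10.03 CPM in the controls and 4.19, 3.53 and 4.65 CPM in the labelled KD libraries. Here too there was no overlap, at -1.07 ± 0.21 (SE), adjusted p = 0.00636.

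Kcnb2, a delayed rectifier gene, was 15.7, 15.5 and 19.1 CPM in the controls and 8.98, 12.5 and 10.8 CPM in the labelled KD libraries. It was lower at -0.64 ± 0.16 (SE), adjusted p = 0.0193, but not without control replicate 3. The remaining silent subunits Kcnf1, Kcng1, Kcng2, Kcng3, Kcns2 and Kcnv1 did not pass the test, with log2 fold changes from -0.51 (Kcnv1) to 0.11 (Kcng3), and groups overlapped in all of them but Kcnf1 and Kcns2.

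In the Kv4 and KChIP class, 2 genes were lower, 2 higher and 3 not called. Kcnd2, the main Kv4 gene of pyramidal cell dendrites, was 98.7, 108 and 97.98 CPM in the controls and 56.2, 50.5 and 49.6 CPM in the labelled KD libraries. The labelled KD libraries had 0.513 of the control level with no overlap, at -0.96 ± 0.08 (SE), adjusted p = 0.000209. Kcnd3, which is found more in interneurons and dentate cells, was 89.6, 81.5 and 91.9 CPM in the controls and 105, 114 and 97.5 CPM in the labelled KD libraries. It lay slightly higher in every labelled KD library, at 0.27 ± 0.08 (SE), adjusted p = 0.0417, a call that did not hold without any 1 of the controls or without labelled KD replicate 2. Kcnip1, the KChIP of GABAergic interneurons, was 18, 14.7 and 13.8 CPM in the controls and 9.09, 10.4 and 6.496 CPM in the labelled KD libraries. It was lower at -0.84 ± 0.20 (SE), adjusted p = 0.0144, except without control replicate 1, when the call was lost. Kcnip3, a calcium sensor that also acts as the transcriptional repressor DREAM, was 81.1, 85.4 and 75.6 CPM in the controls and 129, 168 and 124 CPM in the labelled KD libraries. All labelled KD libraries were above the controls, at 0.80 ± 0.12 (SE), adjusted p = 0.00231. The other members of this class that were not called were Kcnip4, a KChIP of broad neuronal expression (-0.23 ± 0.11 (SE), adjusted p = 0.147), and Kcnd1 (0.13 ± 0.14 (SE), adjusted p = 0.551).

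Kcnip2 (ENSMUSG00000025221, chr19:45791839-45816061) encodes the KChIP that raises surface expression of Kv4 channels, and it was the member whose splicing events had the smallest p-values. As a gene it was 241, 252 and 235 CPM in the controls and 235, 222 and 214 CPM in the labelled KD libraries, a difference that did not pass the test (-0.12 ± 0.07 (SE), adjusted p = 0.211). Its alternative exon 3, of 54 nt, lies at chr19:45796279-45796332 on the minus strand of GRCm38 (mm10). It is exon 3 of 10 in the GENCODE transcript Kcnip2-209, entirely coding, and a multiple of 3 in length, so that its loss keeps the reading frame. The sequence is shown because it is the cassette that carries the change, with the exon in capitals between 10 nt of each neighbouring exon in lower case.
Kcnip2 exon 3: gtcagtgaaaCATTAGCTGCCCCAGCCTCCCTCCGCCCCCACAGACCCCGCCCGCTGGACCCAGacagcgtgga

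Splicing was measured by reads that cross the junctions of the form with a segment (inclusion) or without it (skipping). PSI is the share that the inclusion form takes once both counts are corrected for effective length. The splicing table names its groups only as sample 1 and sample 2 and numbers no replicates, and sample 1 was read as the labelled KD group from the direction of the difference defined in the methods. Inclusion to skipping counts of the Kcnip2 exon were 287 to 14, 296 to 4 and 317 to 6 in the 3 controls and 236 to 74, 200 to 73 and 163 to 72 in the 3 labelled KD libraries. This gave a PSI of 0.938, 0.982 and 0.975 in the controls and 0.702, 0.669 and 0.625 in the labelled KD libraries. The exon was thus nearly always included in the controls and skipped in a larger share of junction reads in each labelled KD library, with no overlap. In edgeR's quasi-likelihood test of junction counts over 18829 events, the ratio of inclusion to skipping changed by -3.79 ± 0.45 (SE) on the log2 scale, adjusted p = 0.00977. Without the control library in the third position of the table the adjusted p was 0.0862, and by limma on the log2 ratio of the forms it was 0.0920.

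The second called event of the members was an alternative 5′ splice site of the exon just upstream in Kcnip2. It used the same skipping counts as the cassette exon, so the pair is not independent. The long form spans chr19:45796279-45797186 and the short form chr19:45797091-45797186, so the long form is defined through a 758 nt intron and the cassette exon. It ends at the 5′ splice site of the cassette exon itself, so reads that leave that site can count for both events. Its PSI is therefore no measure of retention of the intron. PSI of the long form was 0.893, 0.968 and 0.951 in the controls and 0.558, 0.547 and 0.457 in the labelled KD libraries, and the groups did not overlap (change of the log2 ratio -3.76 ± 0.47 SE, adjusted p = 0.00977). This call too was lost without the control library in the third position of the table and by limma on the log2 ratio of the forms. Of the 7 Kcnip2 events tested, the other 5 were not called. Retention of that intron had a PSI of 0.224, 0.204 and 0.187 in the controls and 0.187, 0.288 and 0.233 in the labelled KD libraries, with overlap (unadjusted p = 0.456).

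Across all members, 71 events in 20 genes had enough junction counts to be tested (20 or more per library on average). The 2 called events, both in Kcnip2 and not independent, were 2.82% of the member events, beside 0.255% of all tested events. At an unadjusted p under 0.05 there were 9 member events, or 12.7%, against 13.3% of all events, and PSI did not overlap between groups in 15, or 21.1%, against 18.4%. PSI was lower in 44 and higher in 27 of the 71 events in the labelled KD libraries, so that 62.0% were lower against 52.7% of all events. The events of Kcnma1 and Kcnd3 are given as values that did not pass the adjusted test. The exons shown here are those of single cassettes in these genes whose groups did not overlap and that are annotated in a GENCODE transcript, in capitals between 10 nt of the neighbouring exons.
Kcnma1 exon 27: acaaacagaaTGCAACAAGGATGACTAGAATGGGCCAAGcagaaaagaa
Kcnd3 exon 5: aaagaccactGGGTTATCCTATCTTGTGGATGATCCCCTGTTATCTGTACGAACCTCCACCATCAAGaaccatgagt

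The 29 nt exon 27 of 28 of Kcnma1-204 (chr14:23306725-23306753, minus strand) lies near the end of the BK channel's coding sequence, and its length is no multiple of 3. PSI was 0.219, 0.183 and 0.247 in the controls and 0.0814, 0 and 0.04998 in the labelled KD libraries. The controls lay higher, but each library had only 16 to 26 junction counts (unadjusted p = 0.0321). The 57 nt coding exon 5 of 7 of Kcnd3-201 (chr3:105666962-105667018, plus strand) had PSI of 0.442, 0.413 and 0.385 in the controls and 0.559, 0.510 and 0.803 in the labelled KD libraries. This exon was included more in all labelled KD libraries, chiefly in the third position of the table (unadjusted p = 0.0623).

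**Figure D2:**
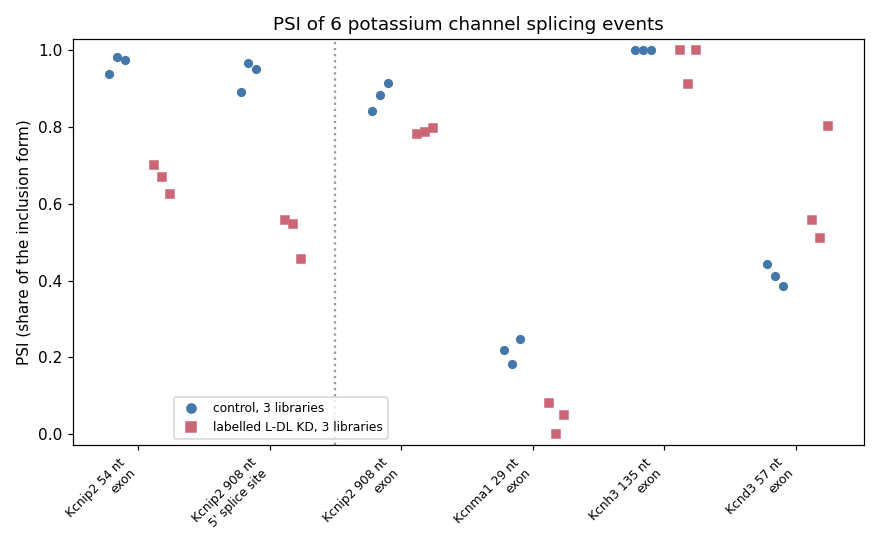
PSI (vertical axis, 0 to 1) in each library of the 2 called events, left of the dotted line, and 4 further member events of small unadjusted p. Circles are the 3 controls and squares the 3 labelled L-DL KD libraries; both Kcnip2 events left of the line fall from 0.893 or more to 0.702 or less, and the Kcnh3 exon is the only one whose groups overlap.

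Small-conductance (SK) channels open on calcium and carry an afterhyperpolarisation that follows spikes, BK channels join calcium and voltage, and Slack and Slick channels open on sodium. Of 11 genes of this class 5 were lower. The SK gene most used in CA1, Kcnn2 (ENSMUSG00000054477), was 50.5, 42.9 and 48.5 CPM in the controls and 20.3, 21.6 and 15.5 CPM in the labelled KD libraries. Each labelled KD library was far under each control, at -1.31 ± 0.14 (SE), adjusted p = 0.000480. Kcnn1 (ENSMUSG00000002908, chr8:70842049-70863258) was 15.1, 13.4 and 14.1 CPM in the controls and 9.64, 4.32 and 4.47 CPM in the labelled KD libraries. It was lower without overlap at -1.21 ± 0.30 (SE), adjusted p = 0.0179, with labelled KD replicate 1 nearest to the controls, and the call was lost without control replicate 1, control replicate 3 or labelled KD replicate 2. Kcnn3 was not called, with a log2 fold change of 0.05, and nor was Kcnn4 (0.44), the intermediate-conductance channel known from microglia and blood cells.

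Kcnma1, the BK pore subunit and the gene with the highest count in this class, was 194, 191 and 194 CPM in the controls and 144, 158 and 117 CPM in the labelled KD libraries. Controls differed little among themselves and lay above all labelled KD libraries, at -0.47 ± 0.10 (SE), adjusted p = 0.0118. Kcnt1 (Slack) was 64.9, 62.95 and 63.2 CPM in the controls and 41.9, 41.9 and 35.04 CPM in the labelled KD libraries. Kcnt2 (Slick) was 22.00, 24.00 and 24.6 CPM in the controls and 16.03, 18.1 and 15.4 CPM in the labelled KD libraries. Both sodium-activated genes were lower with no overlap, at -0.69 ± 0.09 (SE), adjusted p = 0.00111, and at -0.51 ± 0.11 (SE), adjusted p = 0.0111. The BK beta subunits Kcnmb1 and Kcnmb2 and the testis channel gene Kcnu1 had mean levels under 3 CPM in both groups and were not called. Kcnmb4, the BK beta subunit of neurons, had 13, 16 and 23 gene counts in the controls and 29, 25 and 25 in the labelled KD libraries and was not called. The inclusion junctions of its 128 nt exon alone had 279, 286 and 280 counts in the controls and 191, 149 and 179 in the labelled KD libraries, many times the gene counts and in the opposite order, so the gene counts were not read as its level. Of the 33 members with a listed event it was the 1 whose junction counts exceeded its gene count. The antisense genes Kcnmb4os1 and Kcnmb4os2 overlap 10.7% and 20.8% of its exons, and the part of this overlap was not tested.

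Kv1 channels line axons and their terminals, where beta subunits steer and inactivate them, and here 2 genes were lower, both beta subunits, and 2 higher, both alpha subunits, of 9. Kcnab2, the member with the highest count of all 82, was 682, 604 and 641 CPM in the controls and 419, 413 and 420.2 CPM in the labelled KD libraries. Its labelled KD libraries lay close together under all controls, at -0.62 ± 0.07 (SE), adjusted p = 0.000636. Kcnab3 (ENSMUSG00000018470, chr11:69326258-69333042), another beta subunit, was 11.8, 9.77 and 10.4 CPM in the controls and 6.12, 3.93 and 3.16 CPM in the labelled KD libraries. It was lower in every labelled KD library, at -1.27 ± 0.25 (SE), adjusted p = 0.00666. Kcnab1 had lower values in all labelled KD libraries but did not pass the test (-0.24 ± 0.10 (SE), adjusted p = 0.102).

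Kcna1, the axonal Kv1.1 subunit, was 86.9, 82.96 and 90.4 CPM in the controls and 109, 124 and 108 CPM in the labelled KD libraries. All labelled KD libraries were above the controls, at 0.39 ± 0.08 (SE), adjusted p = 0.00785. Kcna3, known from lymphocytes and reactive microglia, was 4.44, 4.18 and 5.65 CPM in the controls and 7.27, 9.25 and 7.09 CPM in the labelled KD libraries. It rose at 0.73 ± 0.20 (SE), adjusted p = 0.0248, but the call was lost without control replicate 1, control replicate 2 or labelled KD replicate 2. Kcna2, which joins Kcna1 in axonal channels and has the highest count of the alpha subunits, had overlapping groups at 168, 156 and 178 against 138, 158 and 120.0 CPM and was not called (-0.27 ± 0.11 (SE), adjusted p = 0.0868), nor were Kcna4, Kcna5 and Kcna6.

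Of the 8 EAG, ERG and ELK genes, which include the ERG channels known for repolarising the heart, Kcnh7 alone was called. It was 38.4, 36.4 and 34.1 CPM in the controls and 17.7, 20.02 and 18.4 CPM in the labelled KD libraries. The labelled KD libraries lay under all controls, at -0.95 ± 0.10 (SE), adjusted p = 0.000452, and 4.57% of its exons overlap the gene Gca on the opposite strand. Kcnh3, the class member with the highest count, was 72.8, 69.8 and 73.5 CPM in the controls and 71.96, 65.1 and 54.7 CPM in the labelled KD libraries, with overlap (-0.17 ± 0.10 (SE), adjusted p = 0.237). Kcnh1 was 60.5, 56.2 and 62.4 CPM in the controls and 76.1, 47.5 and 36.5 CPM in the labelled KD libraries. Like Kcnh2 it was highest of all libraries in labelled KD replicate 1, and both were called lower only when that library was left out, alone or with control replicate 3. Kcnh4, Kcnh5, Kcnh6 and Kcnh8 were not called, with means of at most 5.84 CPM in either group.

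Among inward rectifiers, 3 genes were lower and 1 higher of 13, or 30.8% called, near the 30.5% of all tested genes. Kcnj2 (ENSMUSG00000041695, chr11:111066164-111076821), a strong inward rectifier found in neurons, microglia and vessel cells, was 14.3, 16.8 and 16.2 CPM in the controls and 34.5, 45.3 and 41.4 CPM in the labelled KD libraries. It rose most of all members, to 2.56 times the control level, with no overlap (1.36 ± 0.13 (SE), adjusted p = 0.000326). Its neighbour Kcnj16, 38.2 kb away on the same chromosome at chr11:110968033-111027968, went the other way, at 19.3, 16.3 and 20.6 CPM in the controls and 11.3, 12.3 and 7.81 CPM in the labelled KD libraries. There was no overlap, and the change of -0.84 ± 0.19 (SE), adjusted p = 0.0121 was lost as a call without control replicate 3. Kcnj16 encodes a subunit that joins Kcnj10 in astrocytes.

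Kcnj10, the Kir4.1 channel through which astrocytes clear potassium, was 305, 293 and 307 CPM in the controls and 255, 268 and 263 CPM in the labelled KD libraries. This gene of highest count among inward rectifiers was slightly lower with no overlap (-0.20 ± 0.06 (SE), adjusted p = 0.0343), but the call depended on the setting: it was lost with library size scaling, without a low-count filter, with a replicate block, and without any control library or labelled KD replicate 2. Of the 6 astrocyte markers beside it, Slc1a3 and Gja1 were lower (-0.40 and -0.67), Aqp4 was higher (0.67) and Gfap, Aldh1l1 and Slc1a2 were not called, and their part in the result was not tested. Kcnj6, a G protein-gated (GIRK) subunit, was 39.6, 39.8 and 41.8 CPM in the controls and 30.1, 34.9 and 29.5 CPM in the labelled KD libraries. It was lower at -0.36 ± 0.09 (SE), adjusted p = 0.0208, a call lost without any control library or labelled KD replicate 3. Its GIRK partners Kcnj3 and Kcnj9 had log2 fold changes of 0.11 and 0.21 and were not called, and 31.1% of the exons of Kcnj3 overlap the opposite-strand gene Gm26794. Kcnj4, Kcnj5, Kcnj11, Kcnj12 and Kcnj14 did not pass the test, and the KATP pore gene Kcnj11 was near level at 0.02 ± 0.10 (SE).

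K2P leak channel genes moved in both directions, with 2 lower and 3 higher of 10. Kcnk4 (ENSMUSG00000024957, chr19:6923966-6934515), the mechanosensitive TRAAK channel, was 8.75, 10.1 and 8.95 CPM in the controls and 4.46, 1.29 and 1.49 CPM in the labelled KD libraries. It had the largest fall of all members, -1.93 ± 0.43 (SE), adjusted p = 0.0114, and labelled KD replicate 1 lay above the other two of its group but under the controls. Kcnk4 shares 587 nt (13.1%) of its exons with the same-strand gene Catsperz, which had 73, 115 and 74 counts in the controls and 19, 20 and 5 in the labelled KD libraries, so reads from the shared stretch cannot be told apart. Kcnk3 (ENSMUSG00000049265, chr5:30588170-30625271), the acid-sensitive TASK-1 channel, was 7.58, 8.88 and 9.08 CPM in the controls and 3.64, 2.13 and 2.503 CPM in the labelled KD libraries. The groups were apart at -1.62 ± 0.23 (SE), adjusted p = 0.00175.

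Its close relative Kcnk9 (ENSMUSG00000036760, chr15:72501089-72546340), TASK-3, differed in the opposite direction, at 8.999, 10.1 and 10.03 CPM in the controls and 15.8, 22.3 and 26.3 CPM in the labelled KD libraries. All labelled KD libraries exceeded the controls (1.14 ± 0.19 (SE), adjusted p = 0.00352). Kcnk6 was 18.9, 18.8 and 13.8 CPM in the controls and 24.6, 36.5 and 36.1 CPM in the labelled KD libraries. It rose as well, without overlap (0.92 ± 0.19 (SE), adjusted p = 0.00817). Kcnk13, the THIK-1 channel of resting microglia, was 13.4, 11.8 and 9.46 CPM in the controls and 21.9, 16.04 and 14.5 CPM in the labelled KD libraries. Its labelled KD libraries were all higher, but the adjusted p lay at the threshold (0.60 ± 0.19 (SE), adjusted p = 0.0499) and the call was lost with limma-voom and without any 1 of 5 libraries. Kcnk1, the K2P gene with the highest count, overlapped between groups at 73.5, 79.6 and 87.9 against 74.6, 75.7 and 57.8 CPM (-0.21 ± 0.12 (SE), adjusted p = 0.215). Kcnk2, Kcnk5, Kcnk10 and Kcnk12 were not called either, with log2 fold changes from -0.34 to 0.54.

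**Figure D3:**
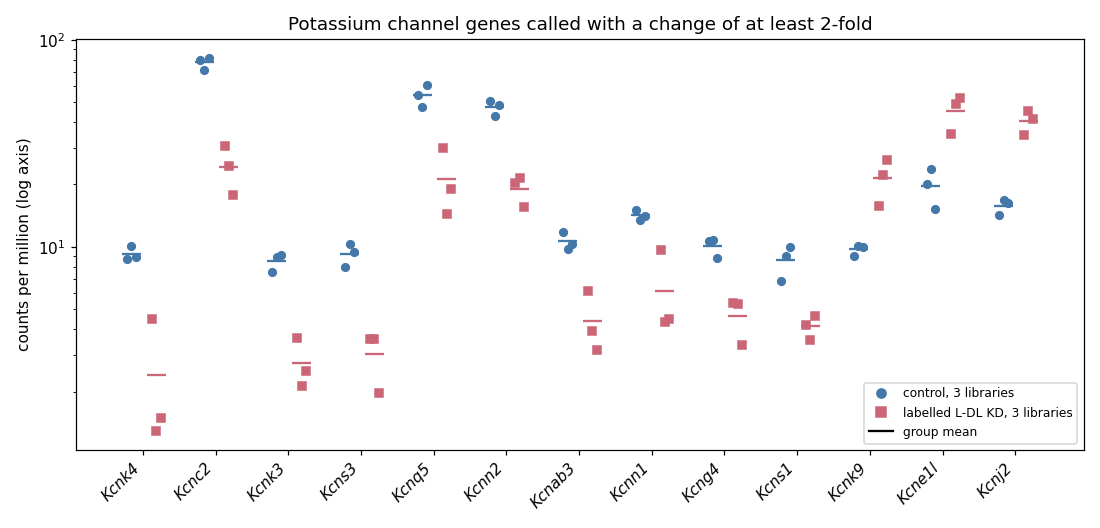
CPM (vertical axis, log scale) in each library of the 13 called members whose level changed at least 2-fold, with a bar at each group mean. Circles are the 3 controls and squares the 3 labelled L-DL KD libraries; in no gene do they overlap, 10 genes from Kcnk4 to Kcns1 lie lower in the labelled KD libraries, and Kcnk9, Kcne1l and Kcnj2 lie higher.

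Beside the higher members known from microglia (Kcnj2, Kcna3 and Kcnk13), the microglial markers Cx3cr1 and Csf1r had log2 fold changes of 1.53 and 1.34, and none of the 8 markers was at 0. The other gene of this kind, Kcnn4, was not called. What part these cells have in the higher counts was not tested. Among mural cell markers Pdgfrb, Rgs5 and Vtn were higher (1.01, 0.47 and 0.74), and their sum was 212 to 259 CPM in the controls against 324 to 429 CPM. Kcnj8, the KATP pore subunit of pericytes, was 3.51, 4.47 and 4.19 CPM in the controls and 6.83, 3.98 and 6.97 CPM in the labelled KD libraries, with overlap (0.55 ± 0.25 (SE), adjusted p = 0.143), while its partner Abcc9, the sulfonylurea receptor of vascular KATP channels, was 14.8, 13.3 and 13.8 CPM in the controls and 19.2, 19.9 and 20.98 CPM in the labelled KD libraries and was called higher (0.52 ± 0.11 (SE), adjusted p = 0.00946).

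KCNE subunits are small membrane proteins that slow or silence Kv channels. Kcne1l (ENSMUSG00000090122, chrX:142304752-142306294) was 20.2, 23.8 and 15.3 CPM in the controls and 35.2, 49.01 and 52.1 CPM in the labelled KD libraries. It rose 2.30-fold without overlap (1.20 ± 0.19 (SE), adjusted p = 0.00304). Kcne4 was not called (0.36 ± 0.29 (SE), adjusted p = 0.392). Kcne2 was 10.6, 4.06 and 25.8 CPM in the controls and 32.7, 0.505 and 0.656 CPM in the labelled KD libraries. Kcnj13, an inward rectifier of transporting epithelia, was 2.28, 1.0 and 8.95 CPM in the controls and 9.75, 0.0561 and 0.536 CPM in the labelled KD libraries. Both genes are known from the choroid plexus, and both were highest in labelled KD replicate 1 and control replicate 3, the libraries that also held most Ttr at 1520, 372 and 4183 CPM in the controls and 4689, 93.8 and 13.9 CPM in the labelled KD libraries. Their groups overlapped across the whole range and neither was called (-0.25 ± 1.27 (SE), adjusted p = 0.904 for Kcne2, and -0.23 ± 1.26 (SE), adjusted p = 0.911 for Kcnj13). Without labelled KD replicate 1 both were called lower, at log2 fold changes of -4.52 for Kcne2 and -3.77 for Kcnj13. In addition 49.1% of the exons of Kcnj13 overlap the opposite-strand gene Gigyf2.

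**Figure D4:**
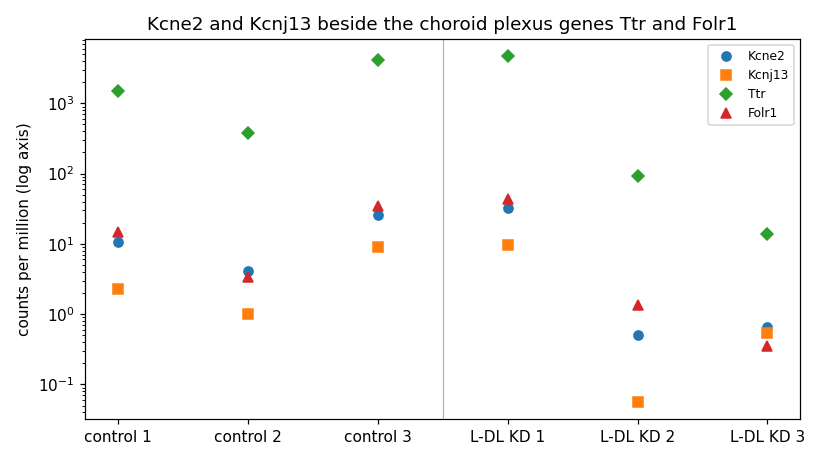
CPM (vertical axis, log scale) of Kcne2, Kcnj13 and the choroid plexus genes Ttr and Folr1 in each of the 6 libraries (horizontal axis). All of these genes are high in control 3 and L-DL KD 1 and low in L-DL KD 2 and 3, where Ttr is at 93.8 and 13.9 CPM.

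Levels of members were compared with each other only as CPM per kilobase of annotated exons. In the controls the levels were 115 ± 7.02 for Kcnab2 (SD, n = 3), 69.9 ± 2.52 for Kcnip2, 55.8 ± 1.34 for Kcnj10 and 35.9 ± 3.25 for Kcnk1. Each of these differed from the next by more than their SDs. In the labelled KD libraries Kcnab2 still had the highest level, 74.8 ± 0.654 CPM per kilobase, and Kcnip2 followed at 64.3 ± 2.98, and Kcnip3 stood at 39.6 ± 6.85 against 22.8 ± 1.38 in the controls. At the low end, Kcnj5, Kcnq1 and Kcnh8 had means of 0.0997, 0.124 and 0.142 CPM per kilobase in the controls, and 5 members (these, Kcne2 and Kcnj13) missed 10 counts in at least 1 library. The 12 genes under the filter were Kcna7, Kcna10, Kcne1, Kcne3, Kcnj1, Kcnj15, Kcnk7, Kcnk15, Kcnk16, Kcnk18, Kcnmb3 and Kcnv2. Kcnv2 came nearest to it, with 26 counts over the 6 libraries and 10 in 1 of them, whereas Kcnq1, Kcnj5, Kcnj13 and Kcnh8 just inside it had 10 or more in 4 libraries.

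**Figure D5:**
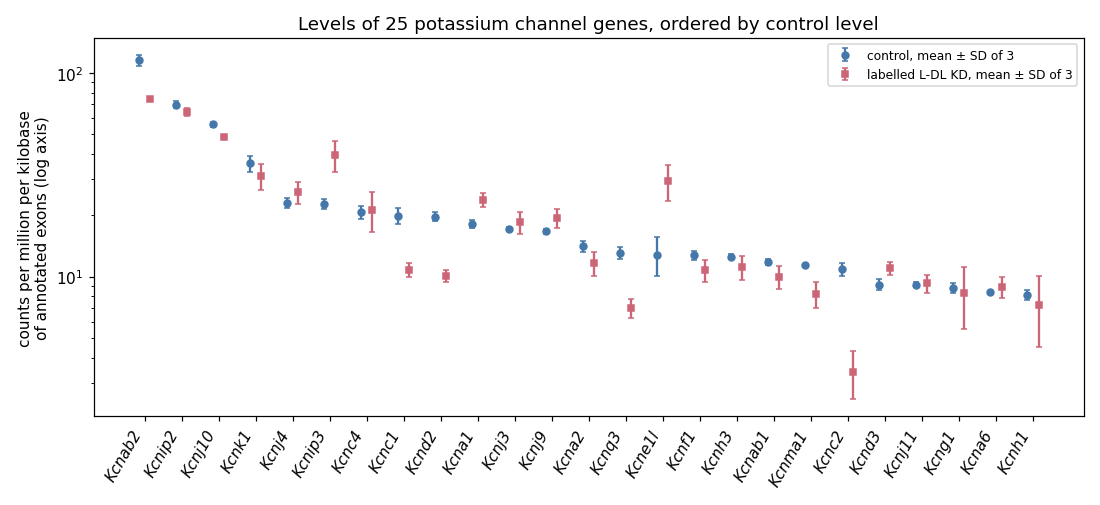
Mean level (CPM per kilobase of annotated exons, vertical log axis) with bars of 1 SD over 3 libraries for 25 members with high levels in the controls, control as circles and labelled L-DL KD as squares. Kcnab2 leads in both groups, Kcnc2 shows the widest drop among these genes, and Kcnip3, Kcna1, Kcnd3 and Kcne1l are those called higher.

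Proteins that bind potassium channels without being channel subunits by name were read from a separate list of 15 genes, of which 14 were tested, with 4 lower and 1 higher. Cntnap2 (Caspr2), which gathers Kv1 channels beside the node of Ranvier, was 93.99, 77.1 and 83.6 CPM in the controls and 29.04, 23.2 and 19.7 CPM in the labelled KD libraries. Its groups were far apart (-1.82 ± 0.14 (SE), adjusted p = 0.000192). Dpp6, the Kv4 partner with the highest count, was 334, 303 and 326 CPM in the controls and 251, 210.3 and 177 CPM in the labelled KD libraries. It was lower in all labelled KD libraries (-0.59 ± 0.12 (SE), adjusted p = 0.00784). Adam22, a receptor of Lgi1 at synapses and axons, was 178, 168 and 182 CPM in the controls and 108, 96.7 and 89.5 CPM in the labelled KD libraries. It was lower too, without overlap (-0.85 ± 0.08 (SE), adjusted p = 0.000387), while Lgi1 itself was not called (0.11).

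Amigo1, an auxiliary protein of Kv2 channels, was 94.8, 98.2 and 103 CPM in the controls and 88.4, 79.01 and 82.7 CPM in the labelled KD libraries. The fall was small and without overlap (-0.24 ± 0.07 (SE), adjusted p = 0.0348). Dpp10, Abcc8, Snx27, Vapa, Vapb and 3 Lrrc genes of BK channels were not called. HCN channels are relatives that carry the depolarising h-current. Hcn3 was 16.1, 16.8 and 14.5 CPM in the controls and 11.7, 10.04 and 10.5 CPM in the labelled KD libraries. It was lower without overlap (-0.56 ± 0.13 (SE), adjusted p = 0.0127), whereas Hcn2 and Hcn4 were not called (0.04 and -0.64).

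The lower members stood beside lower markers of several neuron types. Of 5 CA1 pyramidal markers, Wfs1, Pou3f1 and Mpped1 were lower (-0.73, -1.68 and -1.05), with a list sum of 378 to 452 CPM against 224 to 305 CPM. Of 5 CA3 markers, Cpne4, Spock1 and Lct were lower and Bok was higher (0.89). Of 5 dentate granule cell markers, Dsp, Tdo2 and Rfx3 were lower (-1.05, -1.43 and -0.36) and C1ql2 was not called (-0.51). Prox1 lay higher in every labelled KD library but did not pass the test (0.29, adjusted p = 0.0512). This list summed to 364 to 416 CPM in the controls against 342 to 357 CPM. The 8 general neuronal markers had log2 fold changes from -1.35 (Rbfox3) to 0.88 (Nefl), with a median of -0.46. Snap25 and Syt1 were at -1.0 and -0.92, and Stmn2, Map2, Thy1 and Eno2 at -0.56, -0.36, -0.35 and -0.32. Kcnq3, Kcnd2 and Kcnc1 were at -0.89, -0.96 and -0.88. Of 6 oligodendrocyte markers Mag was higher (0.71), and of 5 endothelial markers Cldn5 and Pecam1 were higher (1.08 and 0.61). The part of cell makeup in the lower members was not tested.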

How the data were processed

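Hippocampal RNA of 3 control and 3 L-DL KD samples was enriched for mRNA by oligo(dT) and sequenced as paired reads. Raw counts of reads on Ensembl genes were deposited without normalization, and the deposited rMATS output gives junction counts for both forms of each splicing event with the lengths used to correct them. The submitters' processing notes name HISAT2 (version 2.1.0), HTSeq (version 0.6.1) and Bowtie (version 1.1.2) and the build mm10. The strand setting of the counting is not given in the sources used here. The rMATS columns of PSI differences, p-values and FDR hold the authors' own comparison and were not used.

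TMM scaling and the edgeR (version 4.0.16) quasi-likelihood test in R (version 4.3.3) were applied to all genes that reached 10 counts in 3 or more libraries. Splicing was tested with edgeR on 12 columns, the 2 forms in 6 libraries, with effects of library, form and form by group, for events that averaged 20 or more junction counts a library and 1 or more of either form. PSI was recomputed per library. Exon lengths, coordinates and exon sequences came from GENCODE M21 (GRCm38). Both models were tested on simulated data. The members and the lists of classes, partners and cell type markers were chosen with earlier results of these data known. Every member may be named. Values per library were given for called genes whose groups did not overlap, up to 5 per class, for the gene of highest count in each class, for called partner and HCN genes, for called events and for the 10 further events of smallest p. Some genes and events that these rules name are not reported here. Other genes with values were chosen after these were seen. Alternatives were DESeq2 (version 1.42.0), limma and limma-voom (version 3.58.1), scaling by library size, other filters on low counts, a replicate block, PSI without effective lengths and leaving out libraries.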

Additional observations from a re-analysis of the deposited data

How the results depend on the processing

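Of the 36 called members, none changed direction under any alternative, and 25 were called under all of them. DESeq2 and filterByExpr called 36 members, library size scaling, no filter and limma-voom 35 each. Leaving out 1 library gave 27 to 44 called members, with 20 to 35 lower and 6 to 11 higher, the 6 without control replicate 1 or 2 and the 44 without labelled KD replicate 1. Deviations of same-numbered samples had correlations of 0.0535, 0.127 and -0.107, and those of other pairs ran from -0.176 to 0.124. Control replicates 1 and 2 were closest to the labelled KD replicate of their own number, and control replicate 3 to labelled KD replicate 1. Replicate numbers thus gave no uniform pairing. A replicate block left 33 members called, without Kcna3, Kcnd3 and Kcnj10. No paired analysis was possible for splicing because its columns carry no replicate numbers. Of the splicing events, 2 were called in edgeR at each count minimum, 0 by limma on the log2 ratio, where 10 had an unadjusted p under 0.05, and 0 to 2 with 1 library left out, where 7 to 11 had an unadjusted p under 0.05. The 0 came without the control library in the third position of the table. Library size scaling moved the median log2 fold change of all genes by 0.03.

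Under any 1 alternative at most 9 of the 46 members that were not called changed sign. With 1 library left out, log2 fold changes ranged from -0.27 to 0.18 for Kcna5, -0.11 to 0.20 for Kcnc4, -4.52 to 0.63 for Kcne2, -0.38 to 0.11 for Kcng1, -0.11 to 0.14 for Kcng2, -0.0062 to 0.33 for Kcng3, -0.51 to 0.051 for Kcnh1, -0.78 to 0.053 for Kcnh2, -0.50 to 0.40 for Kcnh8, -0.056 to 0.080 for Kcnj11, -0.040 to 0.047 for Kcnj12, -3.77 to 1.08 for Kcnj13, -0.090 to 0.45 for Kcnmb1, -0.037 to 0.18 for Kcnn3, -0.19 to 0.76 for Kcnq1, -0.29 to 0.059 for Kcnrg, -0.013 to 0.072 for Vapa, -0.089 to 0.16 for Hcn2 and -0.13 to 0.15 for Hnrnpdl. Kcng2 was at 0.032 with library size scaling and at 0.00071 without a filter. Without the libraries richest in choroid plexus genes, an alternative chosen after seeing the data, 38 members were called, Kcng2 was at 0.033, Kcnk10 at -0.041, Kcnmb1 at -0.061, Kcnn3 at -0.076, Kcnq1 at -0.12, Lrrc55 at -0.038, Vapa at -0.021, Hcn2 at -0.16 and Hnrnpdl at -0.16. The cause of these sign changes was not tested. With 3 libraries a group, small changes of rarely counted genes such as Kcnh8, Kcnj5 and Kcnq1 were not detectable at this depth.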

Other observations

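Some members lie side by side in the genome (GRCm38). Kcnj9 and Kcnj10 are 11.9 kb apart on chromosome 1, with log2 fold changes of 0.21 (not called) and -0.20 (called lower). Kcna3 and Kcna2 are 63.1 kb apart on chromosome 3, with 0.73 (called higher) and -0.27 (not called). On chromosome 6 Kcna1, called higher at 0.39, lies between Kcna5 at -0.09 and Kcna6 at 0.09, neither of which was called. Kcnmb1 lies within the bounds of Kcnip1 on chromosome 11, and the former was at 0.12 (not called) and the latter at -0.84 (called lower).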
